A study of Bos taurus with 30 samples.

Results

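The genes described here are 9 components and regulators of the complement system in a bovine endometrium-on-a-chip: C1R, C1S, SERPING1, C3, CFB, CFI, CD46, CD55 and CD59. They are given by gene name, and all 9 had a row among the 27607 genes of the deposited count tables. The device held primary endometrial cells from uteri of nonpregnant cows (Bos taurus), with epithelial cells above and stromal cells below a porous membrane, and medium flowed through it for the same time in every group. In the glucose experiment the medium held 5 mM or 50 mM glucose. In the insulin experiment it held 5 mM glucose in every group, together with vehicle (acetic acid in phosphate-buffered saline), 1 ng/mL insulin or 10 ng/mL insulin. RNA of each chamber was sequenced with 3 replicates per group, which gave 12 libraries of the glucose experiment and 18 of the insulin experiment in 10 groups. The study calls the replicates biological, and the sources used here do not say whether they came from separate animals, so p-values measure the spread between these libraries. The cells were enriched by straining and plating and not sorted, which limits each chamber as a model of 1 cell type. By flow cytometry the paper found most epithelial cells positive for a keratin and most stromal cells positive for vimentin. Part of the stromal signal was also seen with the secondary antibody.

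Complement is a cascade of proteases and binding proteins that marks surfaces for removal and, at its end, forms pores in membranes. The classical pathway starts with the proteases C1r and C1s, which C1 inhibitor (encoded by SERPING1) blocks, and all pathways meet at C3. Factor B (CFB) builds the C3 convertase of the alternative pathway, which amplifies C3 cleavage, while factor I (CFI) cuts activated C3b with membrane cofactor protein (CD46) as a helper, CD55 takes convertases apart and CD59 stops the pore. Secretory epithelia, the endometrium among them, are known to make several of these proteins themselves.

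Library totals were 13493503 to 16647701 counts in the glucose experiment and 8826470 to 13214728 counts in the insulin experiment, so that 3 counts, taken here as the floor, corresponded to 0.180 to 0.340 CPM (counts scaled to a fixed library total). Levels are given in CPM and are compared between samples, not between genes, since no gene lengths were used. Each chamber was highest in its own markers: KRT18, a keratin of epithelia, had a median of 695 CPM in epithelial and 16.1 CPM in stromal libraries, and COL1A1, a collagen of stroma, had medians of 407 and 22750 CPM. Markers of each cell type were also counted in the other chamber, and whether they came from cells of that type was not tested. The median of 28 epithelial markers in stromal libraries, as a percent of the epithelial mean in the same condition, was between 0 and 7.03% in 12 libraries and was 15.2%, 5.58% and 68.2% in replicates 1, 2 and 3 at 50 mM glucose. Stromal markers stood at 1.67% to 16.0% of the stromal mean in epithelial libraries. KRT18 and EPCAM were at 0 in at least 1 stromal library. Summed over the 8 of 12 listed with a row, immune cell markers were at 4.30 to 20.6 CPM. The 7 endothelial markers with a row summed to 25.7 to 107.1 CPM in epithelial libraries, EMCN being the highest, and to 3.36 to 28.5 CPM in stromal libraries. In bulk samples, fewer cells of a type and less RNA per cell cannot be told apart.

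The first comparison asks in which chamber each gene was expressed. C1R, C1S, SERPING1 and C3 were lower in epithelial than in stromal cells in all 5 conditions, by 3.74- to 27.0-fold, and CFB was higher in epithelial cells in all 5, by 6.48- to 693-fold. The 693-fold difference was at 1 ng/mL insulin, where CFB was counted 19 times in the stromal group. CD46 was higher in epithelial cells in the 3 insulin conditions, by 2.13- to 2.20-fold. CD55 was not called in any condition, and CD59 was called lower in epithelial cells with insulin vehicle alone. A gene is called here at an adjusted p under 0.05 from edgeR's quasi-likelihood test and a log2 fold change beyond 0.1 in either direction. Of the members tested, 5 of 8 were called at 5 mM glucose, 5 of 9 at 50 mM, 7 of 8 with vehicle, 6 of 8 at 1 ng/mL and 6 of 8 at 10 ng/mL insulin, where 21.5%, 17.6%, 55.9%, 59.4% and 54.9% of all protein-coding genes tested were called. The median log2 fold change of the members tested was -2.21, -0.43, -1.71, -1.62 and -1.86 in that order, and the median over all genes lay between -0.01 and 0.03. The libraries of both chambers did not overlap for 5 of 8, 5 of 9, 6 of 8, 5 of 8 and 6 of 8 members tested, where this held for 45%, 35.5%, 66%, 68% and 66.3% of genes.

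**Figure D1:**
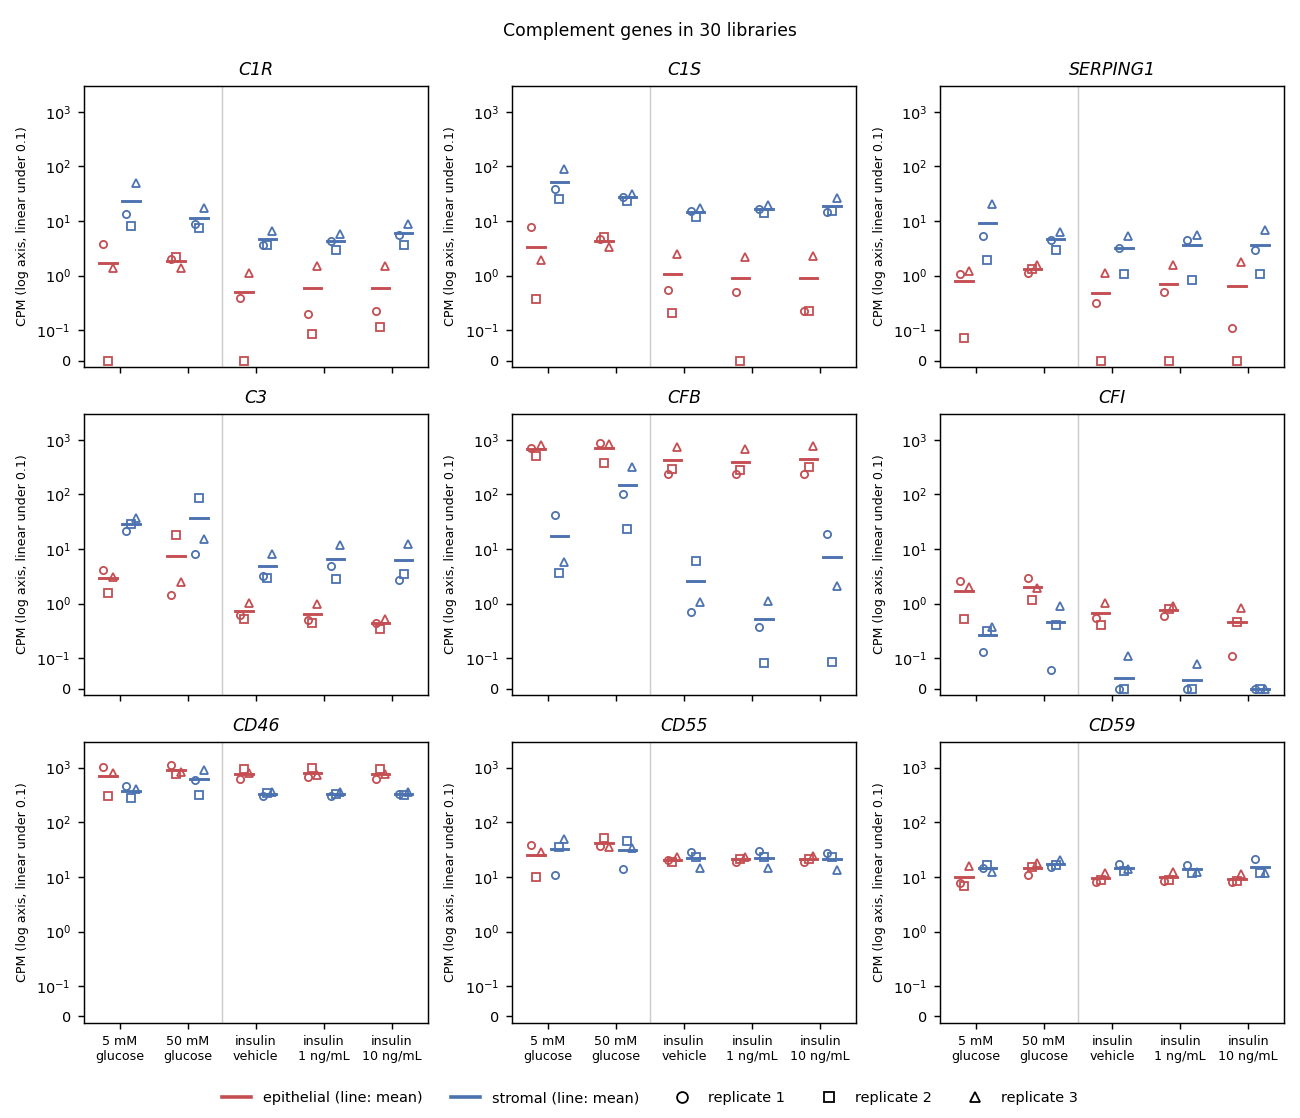
Level of each of the 9 genes in the 30 libraries, in CPM on a log axis that is linear under 0.1, by condition, with epithelial cells in red, stromal cells in blue, a marker shape for each replicate number and a line at the group mean. CFB lies higher in epithelial cells in every condition, and CD46 does so in the insulin experiment but overlaps at both glucose concentrations. C1R, C1S, SERPING1 and C3 lie higher in stromal cells, with overlap for SERPING1 in the insulin experiment and C3 at 50 mM glucose. CD55 overlaps in every condition, as at 18.8 to 22.8 against 14.5 to 28.6 CPM with insulin vehicle.

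C1R (ENSBTAG00000008612), the first protease of the classical pathway, was at 13.6, 8.05 and 49.2 CPM in stromal replicates 1, 2 and 3 at 5 mM glucose, against 3.79, 0 and 1.37 CPM in epithelial cells. At 50 mM it was at 8.89, 7.51 and 17.5 CPM in stromal and 2.02, 2.22 and 1.40 CPM in epithelial cells. Every stromal library was above every epithelial library at the same glucose concentration, and replicate 3 was the highest in stroma at both. With insulin vehicle, 1 and 10 ng/mL the stromal values were 3.67, 3.62 and 6.50, then 4.26, 2.88 and 5.89, and then 5.45, 3.68 and 8.65 CPM. In epithelial cells they were 0.392, 0 and 1.13, then 0.199, 0.0878 and 1.49, and then 0.223, 0.113 and 1.47 CPM. Apart from replicate 3, most of these epithelial values are of 3 counts or fewer. The log2 fold change of epithelial over stromal cells was -4.49 (standard error 1.07, adjusted p = 0.0326) at 5 mM, -2.63 (0.410, 0.0156) at 50 mM, -3.38 (0.625, 0.0103) with vehicle, -3.20 (0.557, 0.00492) at 1 ng/mL and -3.59 (0.502, 0.00505) at 10 ng/mL. At 5 mM glucose the call was lost without replicate 2, at a log2 fold change of -3.65 and an adjusted p of 0.0592, and without the replicate block, at -3.99 and 0.0513. With vehicle it was lost without replicate 1, at -3.48 and 0.0575.

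C1S (ENSBTAG00000004840), the protease that C1r activates, lies next to C1R in the RefSeq annotation of the ARS-UCD2.0 assembly. Its stromal levels were 39.0, 24.8 and 89.1 CPM at 5 mM and 27.1, 23.3 and 30.8 CPM at 50 mM glucose, and its epithelial levels were 7.72, 0.371 and 1.92 CPM and 4.71, 4.99 and 3.37 CPM. In the insulin experiment the stromal values were 15.2, 11.8 and 17.6 CPM with vehicle, 16.5, 14.0 and 19.5 CPM at 1 ng/mL and 14.6, 15.1 and 25.9 CPM at 10 ng/mL. The epithelial values were 0.549, 0.207 and 2.44, then 0.497, 0 and 2.19, and then 0.223, 0.227 and 2.31 CPM. C1S thus showed the same order as C1R, with non-overlapping chambers in every condition and replicate 3 the highest library of the stromal groups. Its log2 fold change was -4.76 at 5 mM (standard error 0.847, adjusted p = 0.014), -2.79 at 50 mM (0.248, 0.00297), -4.08 with vehicle (0.508, 0.00348), -4.52 at 1 ng/mL (0.632, 0.00222) and -4.64 at 10 ng/mL (0.498, 0.00271). Within stromal libraries the ratio of C1S to C1R CPM stayed between 1.76 and 3.11 in the glucose experiment and between 2.68 and 4.85 in the insulin experiment.

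SERPING1 (ENSBTAG00000016267), whose product inactivates C1r and C1s, was at 5.21, 1.95 and 20.7 CPM in stromal cells at 5 mM glucose and at 4.57, 3.002 and 6.28 CPM at 50 mM. Its epithelial values were 1.06, 0.0741 and 1.23 CPM and 1.10, 1.32 and 1.55 CPM. With vehicle, 1 and 10 ng/mL insulin the stromal values were 3.24, 1.09 and 5.42, then 4.45, 0.848 and 5.57, and then 2.95, 1.05 and 6.82 CPM. Epithelial values were 0.314, 0 and 1.13, then 0.497, 0 and 1.59, and then 0.111, 0 and 1.78 CPM. The stromal library of replicate 2 was low at every dose and lay under the epithelial library of replicate 3, so that the chambers overlapped although stroma was higher in 3 of 3 pairs. The log2 fold change was -3.68 at 5 mM (standard error 0.620, adjusted p = 0.0119), -1.90 at 50 mM (0.336, 0.0225), -2.99 with vehicle (0.517, 0.00845), -2.65 at 1 ng/mL (0.513, 0.0072) and -2.96 at 10 ng/mL (0.647, 0.0176). The calls at all 3 insulin doses were lost without replicate 1, with adjusted p of 0.0591, 0.0624 and 0.0513, and those at 1 and 10 ng/mL also without the replicate block, with 0.0631 and 0.0904.

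The levels of these 3 genes in epithelial libraries are set here beside those of the stromal markers. C1S in epithelial cells stood at 15.2%, 0.728% and 3.77% of the stromal mean in replicates 1, 2 and 3 at 5 mM glucose, beside stromal marker medians of 10.6%, 2.97% and 5.54%. With insulin vehicle C1S stood at 3.70%, 1.39% and 16.4%, beside 5.14%, 1.67% and 12.1%. SERPING1 was at 9.66%, 0% and 34.7% in those 3 libraries. The library that was highest in C1S was thus also the highest in stromal markers in both groups. At 5 mM SERPING1 stood at 11.4%, 0.797% and 13.3%, highest in replicate 3, whereas the markers were highest in replicate 1. At 50 mM the markers stood at 16.0%, 13.5% and 10.3%, beside 17.4%, 18.4% and 12.5% for C1S, 17.9%, 19.7% and 12.4% for C1R and 23.8%, 28.6% and 33.5% for SERPING1. The highest library there was replicate 1 for the markers, replicate 2 for C1S and C1R, and replicate 3 for SERPING1. Summed, the 28 stromal markers, in 29 rows, were at 2485 to 6398 CPM in epithelial libraries at 5 mM and 3558 to 8364 CPM at 50 mM. In the insulin experiment these markers were at 1433 to 5368 CPM with vehicle, 1509 to 4920 CPM at 1 ng/mL and 1540 to 4856 CPM at 10 ng/mL. Their part in the epithelial levels of C1R, C1S and SERPING1 was not tested.

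**Figure D2:**
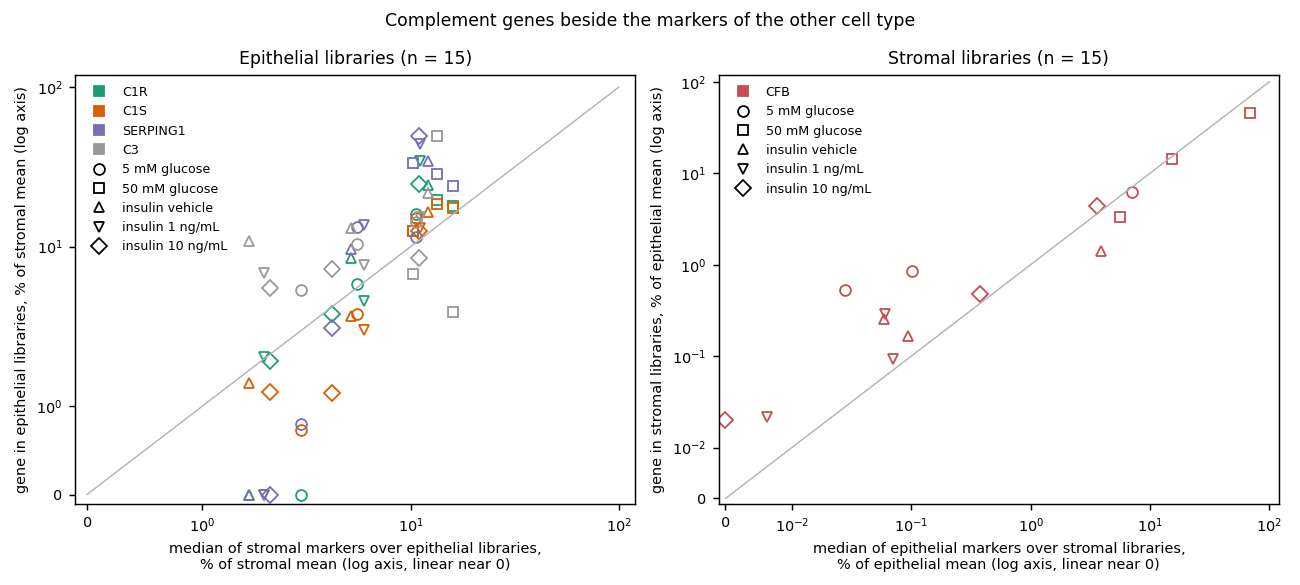
Left, C1R, C1S, SERPING1 and C3 in the 15 epithelial libraries as a percent of the stromal mean of the same condition, against the median percent of the stromal markers there; right, CFB in the 15 stromal libraries as a percent of the epithelial mean, against the median percent of the epithelial markers. Axes are logarithmic and linear near 0, the grey line marks equal percents, and CFB is highest at 45.6% where the epithelial markers are highest at 68.2%.

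C3 (ENSBTAG00000017280), on which all complement pathways act, was at 21.4, 29.1 and 36.7 CPM in stromal cells and at 4.13, 1.56 and 3.02 CPM in epithelial cells at 5 mM glucose. At 50 mM glucose it was at 7.95, 85.6 and 15.5 CPM in stromal and 1.41, 18.1 and 2.46 CPM in epithelial cells. Replicate 2 was thus the highest library in both chambers at 50 mM, and its epithelial value lay above the stromal values of replicates 1 and 3, while within each number stroma was higher. Stromal C3 in the insulin experiment was at 3.24, 2.90 and 8.24 CPM with vehicle, 4.91, 2.80 and 11.6 CPM at 1 ng/mL and 2.65, 3.51 and 12.3 CPM at 10 ng/mL. In epithelial cells it was at 0.627, 0.517 and 1.03, then 0.497, 0.439 and 0.994, and then 0.446, 0.340 and 0.525 CPM. Replicate 3 was the highest stromal library at each dose, and the chambers did not overlap. The log2 fold change of epithelial over stromal cells was -3.60 at 5 mM (standard error 0.482, adjusted p = 0.00713), -2.59 at 50 mM (0.191, 0.00203), -2.72 with vehicle (0.322, 0.00308), -3.35 at 1 ng/mL (0.314, 0.000587) and -3.75 at 10 ng/mL (0.499, 0.00447). In epithelial cells C3 with vehicle stood at 13.1%, 10.8% and 21.5% of the stromal mean, each above the stromal marker median of its library, which was 5.14%, 1.67% and 12.1%. This did not hold throughout, since C3 stood at 3.87%, 49.7% and 6.76% at 50 mM, under the marker medians in replicates 1 and 3, and at 8.53% in replicate 3 at 10 ng/mL, beside a marker median of 10.95%.

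CFB (ENSBTAG00000046158), factor B of the alternative pathway, was at 714, 514 and 811 CPM in epithelial cells at 5 mM glucose and at 867, 376 and 836 CPM at 50 mM. Its stromal values there were 42.4, 3.58 and 5.80 CPM and 100.2, 23.2 and 315.8 CPM. With vehicle, 1 and 10 ng/mL insulin the epithelial values were 239, 289 and 735, then 241, 278 and 665, and then 240.1, 312 and 758 CPM. The stromal values were 0.6997, 5.98 and 1.08, then 0.371, 0.0848 and 1.13, and then 19.1, 0.0877 and 2.11 CPM. The lowest epithelial library was above the highest stromal library in every condition, and epithelial replicate 3 was more than 2 times as high as replicates 1 and 2 at every insulin dose. The log2 fold change was 5.97 at 5 mM (standard error 0.864, adjusted p = 0.00834), 2.70 at 50 mM (0.531, 0.0297), 7.41 with vehicle (0.882, 0.00313), 9.44 at 1 ng/mL (0.316, 3.71e-05) and 6.90 at 10 ng/mL (1.503, 0.0173). At 10 ng/mL the call was lost without replicate 3, with a log2 fold change of 5.88 and an adjusted p of 0.0811, and at 50 mM it was lost without replicate 1, with 2.62 and 0.241. CFB lies next to C2, which encodes the corresponding protein of the classical pathway, in the same annotation. C2 itself had a median of 0.657 CPM in epithelial and 0.0961 CPM in stromal libraries.

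The stromal level of CFB was spread over more than 3 orders of magnitude and ran beside the epithelial markers. As a percent of the epithelial mean it stood at 6.23%, 0.527% and 0.853% at 5 mM glucose, beside marker medians of 7.03%, 0.0278% and 0.102%, and at 14.5%, 3.35% and 45.6% at 50 mM, beside 15.2%, 5.58% and 68.2%. With vehicle it stood at 0.166%, 1.42% and 0.257%, beside 0.0937%, 3.89% and 0.0593%. At 10 ng/mL the values were 4.37%, 0.0201% and 0.484%, beside 3.63%, 0 and 0.376%. The stromal library with the most CFB was the library with the highest epithelial marker median in each of these 4 groups. At 1 ng/mL, where all markers were low, CFB was highest in replicate 3 (0.286%) and the markers in replicate 1 (0.0703%). Whether epithelial RNA had a part in stromal CFB was not tested.

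CFI (ENSBTAG00000034501), the protease that degrades C3b, was counted 13 to 95 times per epithelial group and 0 to 20 times per stromal group. Its epithelial levels were 2.59, 0.519 and 1.99 CPM at 5 mM, 2.996, 1.14 and 1.90 CPM at 50 mM, 0.549, 0.413 and 1.03 CPM with vehicle, 0.597, 0.790 and 0.895 CPM at 1 ng/mL and 0.111, 0.453 and 0.840 CPM at 10 ng/mL. In stroma it was at 0.130, 0.314 and 0.366 CPM at 5 mM and 0.0626, 0.409 and 0.898 CPM at 50 mM, and at or under the floor in all 9 stromal libraries of the insulin experiment, with 1, 1 and 0 counts in the 3 groups. Epithelial cells were higher in 3 of 3 pairs in every condition. Its counts passed the filter in 1 of these comparisons, 50 mM glucose, at 2.06 on the log2 scale (standard error 0.773, adjusted p = 0.122). With no filter on low counts edgeR called CFI higher in epithelial cells with vehicle and at 1 ng/mL, and DESeq2 called it at 1 ng/mL. The ratio of summed counts, scaled to the library totals, was 6.37 at 5 mM (95% exact interval 3.51 to 12.5), 4.54 at 50 mM (2.78 to 7.76), 21.1 with vehicle (3.41 to 870) and 26.7 at 1 ng/mL (4.35 to 1096), intervals that cover counting error alone. At 10 ng/mL it was counted 13 times in epithelial and 0 times in stromal cells, for which the lower limit of the same interval was 3.91. A further RefSeq gene overlaps CFI, and without a stated strand setting for the counting their reads cannot be told apart.

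CD46 (ENSBTAG00000005397), the membrane cofactor of factor I, was at 1034, 309 and 784 CPM in epithelial and 454, 277 and 409 CPM in stromal cells at 5 mM glucose. At 50 mM it was at 1122, 767 and 842 CPM in epithelial and 607, 323 and 915 CPM in stromal cells, where stromal replicate 3 is the library with an epithelial marker median of 68.2%. The chambers overlapped at both concentrations, and the log2 fold changes of 0.55 (standard error 0.353, adjusted p = 0.35) and 0.52 (0.298, 0.267) were not called. In the insulin experiment the epithelial values were 624, 932 and 787 CPM with vehicle, 671, 975 and 742 CPM at 1 ng/mL and 632, 950.0 and 765 CPM at 10 ng/mL. Stromal values were 302, 344 and 364, then 303, 333 and 362, and then 328, 322 and 358 CPM. Here the chambers did not overlap, with log2 fold changes of 1.12 (0.139, 0.00346), 1.13 (0.155, 0.00204) and 1.09 (0.156, 0.0053). The call held under every alternative processing that was run, with log2 fold changes from 0.93 to 1.27.

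CD55 (ENSBTAG00000006984), which speeds the decay of convertases, did not separate the chambers. Its epithelial values were 37.7, 10.1 and 29.2 CPM at 5 mM and 36.9, 52.3 and 35.8 CPM at 50 mM glucose, and its stromal values were 11.0, 35.5 and 49.7 CPM and 13.9, 46.4 and 34.2 CPM. With vehicle, 1 and 10 ng/mL insulin it was at 20.4, 18.8 and 22.8, then 18.8, 21.6 and 22.9, and then 18.7, 21.3 and 24.1 CPM in epithelial cells. Stromal values were 28.6, 23.3 and 14.5, then 30.4, 22.8 and 14.4, and then 26.9, 23.0 and 13.3 CPM. At all 3 insulin doses replicate 1 was the highest and replicate 3 the lowest of the stromal libraries, whereas replicate 3 was the highest of the epithelial ones. The log2 fold change was -0.54 at 5 mM (standard error 0.721, edgeR adjusted p = 0.657) and 0.39 at 50 mM glucose (0.267, 0.351). In the insulin experiment it was -0.14 with vehicle (0.217, 0.616), -0.15 at 1 ng/mL (0.248, 0.628) and -0.04 at 10 ng/mL (0.259, 0.906). None of these was called, and epithelial cells were higher in 3 of 3 pairs at 50 mM alone.

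CD59 (ENSBTAG00000002302), which blocks the membrane pore, was at 7.58, 6.89 and 15.9 CPM in epithelial and 14.4, 16.6 and 12.3 CPM in stromal cells at 5 mM, and at 10.8, 15.4 and 17.6 CPM and 15.5, 16.6 and 20.4 CPM at 50 mM glucose. Epithelial values were 8.08, 8.89 and 11.9 CPM with vehicle, 8.25, 8.96 and 12.4 CPM at 1 ng/mL and 8.13, 8.497 and 11.1 CPM at 10 ng/mL. Stromal values were 17.1, 12.8 and 14.1, then 16.9, 12.0 and 12.3, and then 21.0, 11.7 and 12.0 CPM. Epithelial cells were lower in 3 of 3 pairs at 50 mM, with vehicle and at 10 ng/mL. The call with vehicle (log2 fold change -0.70, standard error 0.177, adjusted p = 0.0262) was lost without replicate 1 (-0.54, 0.101) and without replicate 2 (-0.73, 0.0699). The other 4 log2 fold changes were -0.83, -0.43, -0.58 and -0.75 at 5 mM, 50 mM, 1 and 10 ng/mL, with adjusted p of 0.261, 0.188, 0.0678 and 0.0566.

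**Figure D3:**
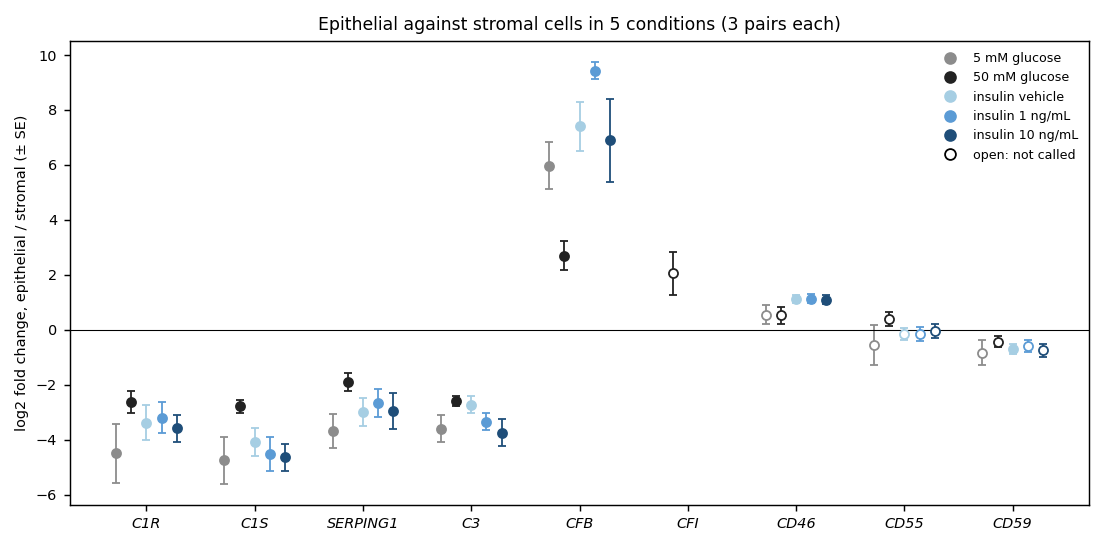
Log2 fold change of epithelial over stromal cells with its standard error for each gene in the 5 conditions, 3 replicate pairs each; filled points are called and open points are not. C1R, C1S, SERPING1 and C3 lie between -4.76 and -1.90 and CFB between 2.70 and 9.44, while CD55 lies between -0.54 and 0.39; CFI has 1 point because its counts passed the filter at 50 mM glucose alone.

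The fold changes at 50 mM glucose were the smallest of the 5 conditions for CFB, C1R, C1S, SERPING1 and C3, as shown in the plot of fold changes by condition. The 28 epithelial markers had a median log2 fold change of 2.24 at 50 mM against 6.79 to 10.2 in the other conditions, and the stromal markers a median of -3.07 against -4.44 to -4.22. Of the epithelial markers, 3 were called at 50 mM and 26 or more elsewhere. Without replicate 1 no member was called at 50 mM, where 0 of 13351 protein-coding genes were called. The edgeR adjusted p there ran from 0.05 for C3 to 0.241 for CFB among the 5 members called with all replicates. Leaving out replicate 3 raised the log2 fold change of CFB to 3.37.

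Of the 40 other complement genes listed for this purpose, 18 had a row under that name and 9 to 11 were tested per condition. Called between chambers were 5 of 11 at 5 mM, 4 of 11 at 50 mM, 5 of 9 with vehicle, 5 of 10 at 1 ng/mL and 8 of 10 at 10 ng/mL, and their median log2 fold change was between -0.27 and 0.35. With vehicle the called genes were SUSD4, a membrane protein with complement control domains (4.97), CLU, which encodes clusterin, an inhibitor of the terminal complex (4.78), C1RL, which encodes a C1r-like protease (1.51), and C8G, a chain of C8 (0.88), all higher in epithelial cells, and CFP, which encodes properdin, the stabilizer of the alternative convertase, lower by -1.84. The level of CLU ran from 354 to 799 CPM over epithelial libraries and from 10.7 to 327 CPM over stromal ones. The interferon response list, 35 genes named because interferons are known inducers of several complement genes, had median log2 fold changes of 3.55, 1.18, 3.58, 3.20 and 3.28 in the 5 conditions, with 23 of 31, 1 of 33, 27 of 32, 28 of 31 and 28 of 32 genes called.

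The second comparison asks whether raising glucose from 5 to 50 mM altered the members within a chamber. No member was called in either cell type by edgeR or by DESeq2, where edgeR called 0% of protein-coding genes in both and DESeq2 called 0 of 15585 in epithelial and 194 of 15619 in stromal cells. At an unadjusted p under 0.05 there were 0 of 9 members in epithelial cells and 1 of 8 in stromal cells, the member being CFB, beside 1.54% and 4.96% of all genes. The median log2 fold change of the members was 0.60 in epithelial cells, with 8 of 9 higher at 50 mM, and -0.24 in stromal cells, with 3 of 8 higher, and the medians of all genes were 0.01 and -0.03.

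In epithelial cells 3 members were higher at 50 mM in 3 of 3 pairs, SERPING1 by 0.95 (standard error 0.719), CD46 by 0.51 (0.304) and CD59 by 0.60 (0.294) on the log2 scale, each with an adjusted p of 0.804. The same direction in all pairs occurred in 29.5% of genes in epithelial and 33.5% in stromal cells. The others lay between -0.04 for CFB and 0.99 for C1S. Replicate 2 had the largest rise for every member but CFB, with CD46 at 309 against 767 CPM, CD55 at 10.1 against 52.3 CPM, C1S at 0.371 against 4.99 CPM and C3 at 1.56 against 18.1 CPM. Stromal markers were higher at 50 mM for 26 of 26 rows tested, with a median of 0.70, and their part in the values of C1R, C1S and SERPING1 was not tested. Without replicate 2 the 3 log2 fold changes were 0.23 for SERPING1, 0.15 for CD46 and 0.34 for CD59.

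In stromal cells CFB was higher at 50 mM in 3 of 3 pairs, at 42.4 against 100.2, 3.58 against 23.2 and 5.80 against 315.8 CPM, which gave 3.06 on the log2 scale (standard error 1.01, unadjusted p = 0.0362, adjusted p = 0.696). It was 1.80 without replicate 3 and 4.18 without replicate 1. The epithelial markers rose beside it, higher at 50 mM for 27 of 27 tested with a median log2 fold change of 4.43 and summed levels of 106 to 819 CPM at 5 mM and 1165 to 7174 CPM at 50 mM, and of these 0 were called. The interferon list was higher for 26 of 26 genes tested there, with a median of 1.68, and lower in epithelial cells for 27 of 33, with a median of -0.54, and 0 were called in either. CD46 was higher in 3 of 3 stromal pairs, by 0.53 (standard error 0.216), and C1R and C1S were lower in 3 of 3, by -0.82 (0.322) and -0.78 (0.334), all with an adjusted p of 0.696. Stromal markers were lower for 29 of 29 rows, with a median of -0.54. The remaining members lay between -0.55 for SERPING1 and 0.21 for CD59, and C3 was at -0.47 with 1 pair higher, replicate 2, and 2 pairs lower. The stromal change minus the epithelial change was not called for any of 9 members, with CFB at 3.11 (standard error 1.02, unadjusted p = 0.0173, adjusted p = 0.631) by edgeR, where 0% of genes were called and 7.65% had an unadjusted p under 0.05. DESeq2 called CFB there, with a log2 difference of 3.10 and an adjusted p of 0.0145, among 239 of 15668 protein-coding genes called. Without replicate 1 edgeR called it too, at 4.38 with an adjusted p of 0.0324, among 303 of 13920.

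**Figure D4:**
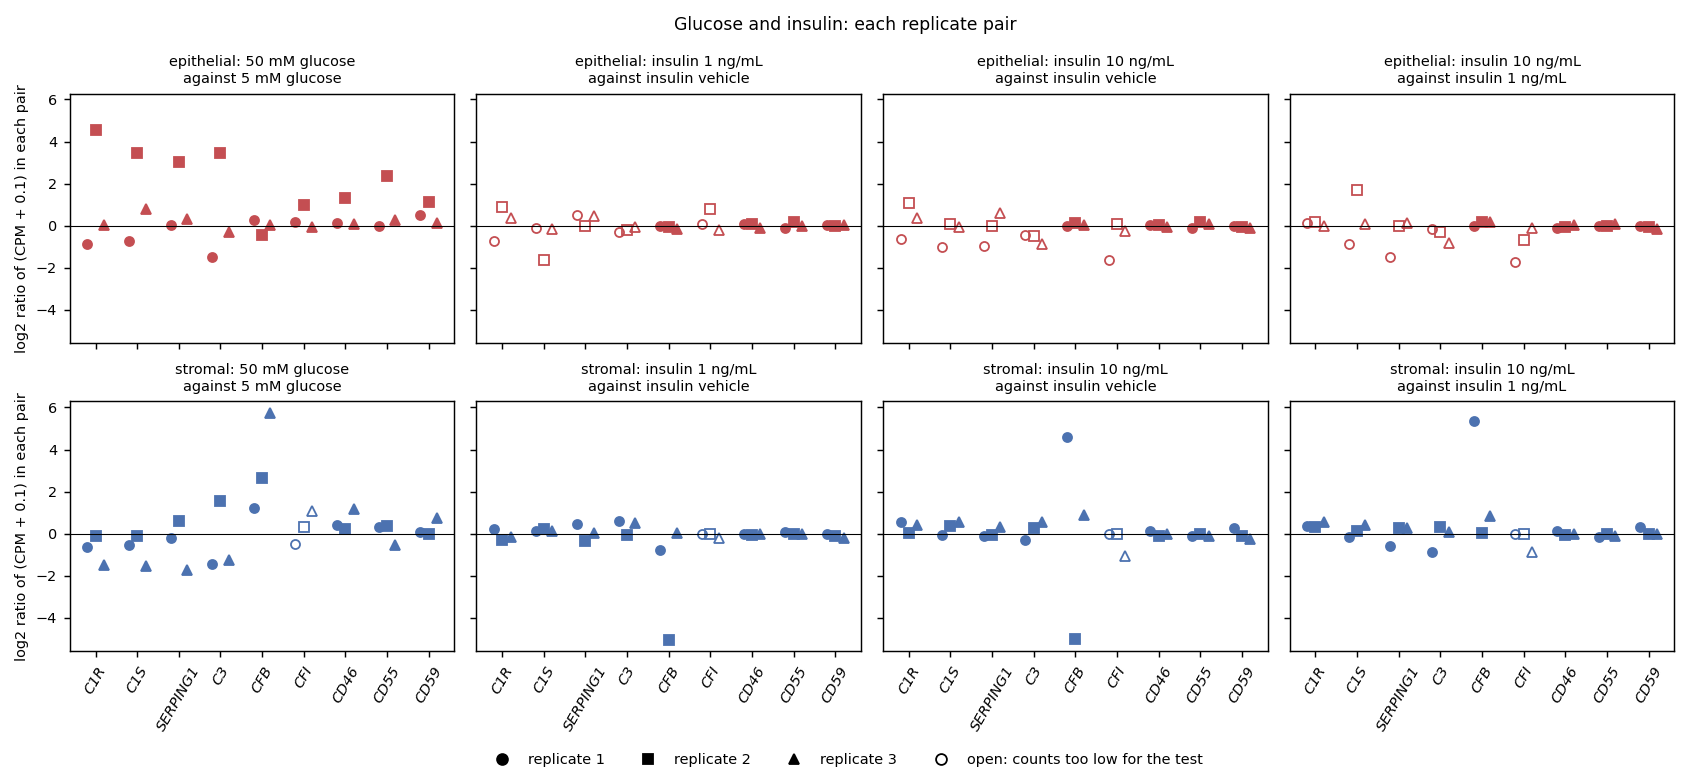
Log2 ratio of (CPM + 0.1) at the higher over the lower dose in each replicate pair, for each gene, by cell type and comparison; open points are genes whose counts were too low for the test. Most ratios of the insulin comparisons lie near 0, stromal CFB is spread from about -5 to above 5, and replicate 2 is the highest epithelial pair at 50 mM glucose for every gene but CFB.

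The third comparison asks whether insulin altered the members. Over the 6 comparisons of dose within a cell type 0 members were called by edgeR and 0 by DESeq2, beside 0.113% of genes in epithelial cells and 0% in stromal cells at 10 ng/mL against vehicle, 0% in both at 1 ng/mL against vehicle, and 0% in epithelial and 0.0244% in stromal cells at 10 against 1 ng/mL. In epithelial cells CFB, CD46, CD55 and CD59 were tested, while C1R, C1S, SERPING1, C3 and CFI were too low. The log2 fold changes of these 4 were between -0.10 and 0.12. In 3 of 3 pairs, CD59 lay above vehicle at 1 ng/mL (0.03, standard error 0.125) and lower at 10 than at 1 ng/mL (-0.10, 0.127), and CFB lay above vehicle at 10 ng/mL (0.05, 0.0398), with adjusted p of 1, 0.983 and 0.891. CFB at 10 against 1 ng/mL, 0.12 with 2 of 3 pairs higher, was the 1 member at an unadjusted p under 0.05 (0.0129, edgeR adjusted p = 0.983), where 2.87%, 6.78% and 4.29% of genes had such a p in the 3 contrasts. C3, untested at 12 to 24 counts per group, was lower in CPM with rising dose in 3 of 3 pairs, from 0.725 ± 0.271 CPM (SD, n = 3) with vehicle to 0.644 ± 0.305 (SD, n = 3) at 1 ng/mL and 0.437 ± 0.0928 (SD, n = 3) at 10 ng/mL, differences of a few counts per library. In replicate 2 it was counted 5 times both with vehicle and at 1 ng/mL, so that step came from the library totals alone. CFI, at 13 to 24 counts per group, was lower in 3 of 3 pairs at 10 than at 1 ng/mL.

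In stromal cells, 8 members were tested at each contrast, and apart from CFB their log2 fold changes were between -0.14 and 0.42. C1R was higher in 3 of 3 pairs at 10 ng/mL, both against vehicle (0.35, standard error 0.185, adjusted p = 0.999) and against 1 ng/mL (0.41, 0.178, adjusted p = 1); these comparisons share the 10 ng/mL libraries. In 3 of 3 pairs C1S lay above vehicle at 1 ng/mL (0.20, 0.0998, adjusted p = 0.917), and CD59 at 1 ng/mL (-0.07, 0.109, 0.979) and CD55 at 10 ng/mL (-0.07, 0.0843, 0.999) were lower than with vehicle in 3 of 3. Among all genes, the same direction in 3 of 3 pairs occurred in 21.7%, 26.5% and 24.8% in epithelial and 26.4%, 23.1% and 23.2% in stromal cells, for 1 ng/mL against vehicle, 10 ng/mL against vehicle and 10 against 1 ng/mL. Members at an unadjusted p under 0.05 were C3 and CFB at 1 ng/mL against vehicle, C1S at 10 ng/mL against vehicle, and C1R and CFB at 10 against 1 ng/mL, 2, 1 and 2 of 8, where 5.03%, 2.73% and 3.68% of genes had such a p. For C1S and CD59 at 1 ng/mL against vehicle the pairs went opposite ways in the chambers, and the stromal minus epithelial difference was 0.43 (standard error 0.374, adjusted p = 0.921) for C1S and -0.11 (0.153, 0.962) for CD59.

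CFB in stroma was counted 8, 66 and 10 times with vehicle, 4, 1 and 14 times at 1 ng/mL and 252, 1 and 22 times at 10 ng/mL in replicates 1, 2 and 3. Replicate 2 was the highest library with vehicle and the lowest at both insulin doses. The log2 fold change of stromal CFB was -2.09 at 1 ng/mL against vehicle (standard error 0.684, adjusted p = 0.87), 0.80 at 10 ng/mL against vehicle (1.38, 0.999) and 3.26 at 10 against 1 ng/mL (0.665, 0.272), where 3 of 3 pairs were higher in CPM and the value without replicate 1 was 0.84. In replicate 2 that pair held 1 count at each dose, so its direction came from the library totals alone. The stromal minus epithelial difference at 10 against 1 ng/mL was called for CFB alone among 8 members, at 3.38 (standard error 0.495, adjusted p = 0.0029), where 0.728% of genes were called and 6.6% had an unadjusted p under 0.05. Of the 28 epithelial markers, 21 were called in the same direction in that test, with a median of 3.83. Without replicate 1 the difference was 0.70 with an adjusted p of 0.827, and with DESeq2 it was 2.38 with an adjusted p of 1, and without the replicate block 3.50, also with an adjusted p of 1. In the other insulin contrasts edgeR called the difference for 0 of 8 members, beside 0.659% of genes at 1 ng/mL against vehicle and 0% at 10 ng/mL against vehicle. Members with an unadjusted p under 0.05 were 1 and 0, beside 6.69% and 4.05% of genes. DESeq2 gave an adjusted p for 5 members in the first of these contrasts and 9 in the second and called 0, beside 25 of 15639 and 0 of 15637 protein-coding genes. Of the other complement genes, 0 of 9 tested in epithelial and 0 of 10 in stromal cells were called for glucose by edgeR, and 0 of 6 and 0 of 9 in each insulin contrast. At an unadjusted p under 0.05 there were 0 and 0 for glucose, and in the 3 insulin contrasts 1, 1 and 1 in epithelial and 2, 1 and 0 in stromal cells. DESeq2 called 0 of them in each.

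Replicate number held more of the sum of squares than dose for every member in the insulin experiment. The same held for every member but CFB (10.5% against 16.4%) in the glucose experiment. The glucose experiment had more replicate numbers than concentrations, which raises the share of replicate number there. The order was not particular to the members. The medians over protein-coding genes were 16.8% against 1.87% in the insulin and 36.7% against 6.86% in the glucose experiment. In the insulin experiment 96.5% of the sum of squares of CD55 on the log2(CPM + 1) scale lay between its replicate numbers inside each cell type and 0.00528% lay between the cell types, while the medians over 13459 protein-coding genes were 16.8% and 70.8%. CD46, CFB and C1S were at the other end, with 91.9%, 92.1% and 91% between cell types. SERPING1 and CD59 were split between cell type (52.9% and 55%) and replicate number (45% and 40.5%). The share of dose was 0.0294% to 5.28% over the members, against a median of 1.87% over all genes. In the glucose experiment the share of concentration was 1.85% to 25.5%, highest for CD59, against a median of 6.86%, and the cell type share of CD55 was 0.774%.

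**Figure D5:**
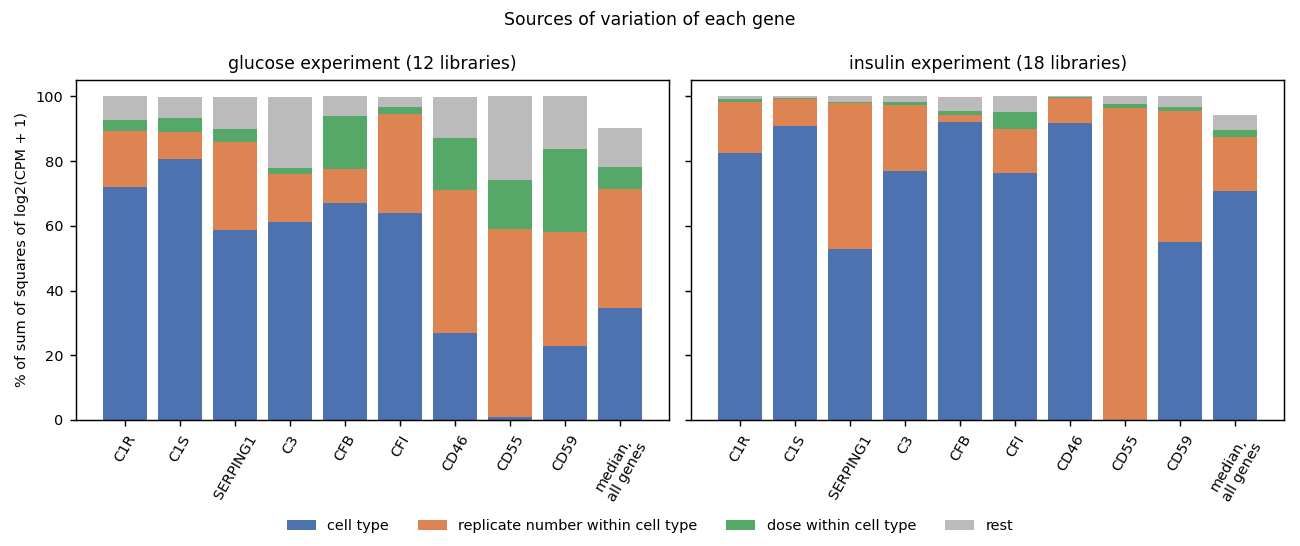
Percent of the sum of squares of log2(CPM + 1) of each gene that lies between cell types (blue), between replicate numbers of 1 cell type (orange), between doses of 1 cell type, and in the rest, in the 12 libraries of the glucose and the 18 of the insulin experiment; the last bar stacks the medians over all protein-coding genes, which need not add to 100%. In the insulin experiment CD55 is almost wholly orange, at 96.5% between replicate numbers, and CFB, CD46 and C1S are at 92.1%, 91.9% and 91% blue, while in the glucose experiment CD55 is at 58.2% orange and CFB, CD46 and C1S are at 67.1%, 26.9% and 80.5% blue.

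As a description of likeness, Pearson's r was computed over the 30 libraries, and no p is given. The mean of each cell type and experiment was first subtracted from log2(CPM + 1). All genes of a library share its depth, its replicate number and its level of the other cell type's markers. C1R and C1S were most alike of the 36 pairs of members, at r = 0.918, or 0.972 in the 15 epithelial and 0.931 in the 15 stromal libraries, and SERPING1 was at 0.855 with C1R and 0.763 with C1S. Among 12524 protein-coding genes, C1R was most like C1S, ISOC1 and SERPING1, and C1S was most like C1R, the stromal marker PDGFRA (0.917) and EPAS1 (0.882). Among the 3 genes most like CFB were a gene without a symbol (ENSBTAG00000055295, 0.934) and STAP2 (0.931). CD46 was most like ENSBTAG00000049233 (0.948), UBL3 (0.926) and IPMK (0.926), and CD59 was most like MRE11 (0.825), ZNF655 (0.811) and STX17 (0.807). Among the 3 genes most like CD55 were ACAT1 (0.905) and NNT (0.852). C3 had NELL2 (0.83), KCNJ5 (0.72) and GATA6 (0.712) nearest, SERPING1 had SCRN1 (0.896), ADGRL1 (0.882) and MAN1C1 (0.864), and CFI, at low counts, had C15H11orf58 (0.848), NUP160 (0.843) and PDHA1 (0.842). C3 with CFB was at -0.35.

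Set side by side, both experiments held a group at 5 mM glucose without insulin. Stromal C3 was at 29.0 ± 7.65 CPM (SD, n = 3) in the glucose experiment and 4.79 ± 2.99 CPM (SD, n = 3) with insulin vehicle, C1R at 23.6 ± 22.3 and 4.60 ± 1.65 CPM (SD, n = 3 each), and C1S at 50.9 ± 33.8 and 14.9 ± 2.91 CPM (SD, n = 3 each). Epithelial CFB was at 680 ± 152 and 421 ± 273 CPM (SD, n = 3 each). CD46 in stroma was at 379.8 ± 91.9 and 337 ± 31.5 CPM, and CD59 at 14.4 ± 2.14 and 14.7 ± 2.25 CPM (SD, n = 3 each). Vehicle and experiment differ together here and cannot be told apart, so no test was made.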

How the data were processed

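Per the labels and the study's methods, the authors built stranded libraries from total RNA, sequenced them as single-end reads, trimmed them with cutadapt, aligned them uniquely and counted reads per gene with featureCounts on Ensembl release 96; the strand setting is not given in the sources used here. The deposited tables hold these raw counts; the authors' tables of DESeq2 results gave gene names and types alone, and their fold changes and p-values were not used. Groups came from the labels. Counts were fitted on all genes with edgeR 4.0.16 (R 4.3.3; TMM factors, filterByExpr, quasi-likelihood test, replicate number as a block as in the study's paired design), with Benjamini-Hochberg adjustment over all genes tested, and the standard error is the absolute log2 fold change divided by the square root of F. Alternatives were RLE size factors, no filter, no block, DESeq2 1.42.0, 1 fit of all insulin doses, TMM-scaled CPM and leaving out each replicate. Replicate numbers paired libraries within a cell type, since same-numbered libraries deviated together (lowest correlation 0.147); between chambers every correlation was over 0.1 in 3 of 5 conditions, and the lowest was 0.0273 and 0.0599 in the others. No libraries were duplicates. Scripts were tested on simulated data. All 9 members were named, with treatment effects given singly where 3 of 3 pairs moved the same way or the gene was called; of the other complement genes, those called with insulin vehicle were named. The members and lists were chosen with earlier results of these data known. Of the genes most like each member, some are not reported here.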

Additional observations from a re-analysis of the deposited data

Results flagged for a closer look

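The effect of 10 against 1 ng/mL insulin on CFB differed between the cell types by the test of the difference, with a stromal minus epithelial log2 difference of 3.38. It rested on the stromal library of replicate 1 at 10 ng/mL, which held 252 of the 275 stromal CFB counts of that group and an epithelial marker median of 3.63%, and was 0.70 (adjusted p = 0.827 from edgeR) without replicate 1. Whether epithelial RNA had a part in this difference was not tested. Groups of 3 libraries were not searched for single outlying libraries.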

How the results depend on the processing

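All group levels moved by less than 1 SD under TMM-scaled totals. With 1 replicate left out, 33 of 90 group levels moved by more than 1.5 times, stromal CFB at 10 ng/mL insulin from 7.09 to between 1.10 and 10.6 CPM. Over all alternatives, refitted fold changes kept direction and call in 396 cases, changed direction in 8, lost a call in 21 and gained one in 9. The replicate block changed counts of calls as follows. Without the block, 3 members were called between chambers at 50 mM glucose (C1R, C1S and SERPING1, with C3 and CFB lost), CFB was not called in the difference of effects at 10 against 1 ng/mL insulin (0 members), C1R at 5 mM glucose and SERPING1 at 1 and 10 ng/mL lost their calls, and CD59 gained calls at 1 and 10 ng/mL; no other call changed. DESeq2 called 1 of the 8 members with an adjusted p, CFB, in the difference of glucose effects and 0 of 3 in that of 10 against 1 ng/mL. With no filter, CFI gained calls between chambers with vehicle and at 1 ng/mL, and CFB was the 1 member called in stroma at 1 ng/mL against vehicle and at 10 against 1 ng/mL, and in the difference of effects at 1 ng/mL against vehicle. With 1 replicate left out, members called ranged from 0 to 5 between chambers at 50 mM (0 of 13351 protein-coding genes called without replicate 1, 3785 of 13338 without replicate 3), 4 to 7 with vehicle, 0 to 1 in stroma at 10 ng/mL against vehicle, and 0 to 1 in the difference of effects for glucose and for each insulin contrast. CD55 between chambers, never called, ranged with 1 replicate left out from -1.48 to 0.23 at 5 mM, -0.41 to 0.0102 with vehicle, -0.46 to 0.16 at 1 ng/mL and -0.38 to 0.20 at 10 ng/mL, with reversals to 0.00117 (vehicle) and 0.07 (10 ng/mL) without replicate 2. Epithelial CD59 at 1 ng/mL against vehicle ranged from -0.001101 to 0.0544, and the CFB difference at 10 ng/mL against vehicle from -1.84 without replicate 1 to 3.64 without replicate 2. Causes were not tested. Low counts per library limit epithelial C1R (0 to 15), C1S (0 to 26), SERPING1 (0 to 17) and C3 (3 to 11) in the insulin experiment. Stromal CFB is limited there too, at 1 to 252 counts per library. Epithelial C1R and SERPING1 also had 0 and 1 counts in replicate 2 at 5 mM glucose. Over both experiments CFI is limited in both chambers, at 1 to 49 counts per epithelial and 0 to 13 per stromal library.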
